A study of Mus musculus with 9 samples.

Results

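The 38 genes described here encode enzymes that make purine and pyrimidine nucleotides from small precursors, recover them from bases and nucleosides, or turn them into the building blocks of DNA. They were taken by gene symbol from a table of 53715 genes of mouse primary myoblasts profiled by RNA sequencing, and each symbol stood on a single row. By role they divided into 18 genes of de novo synthesis, 9 of salvage and AMP deamination, 3 nucleotide kinases and 8 of deoxynucleotide supply. Primary myoblasts are muscle precursor cells that divide in culture and can fuse into fibres. The cells came from the strain C57BL/10ScSn-Dmdmdx/J, whose dystrophin gene carries a mutation that stops production of the protein, so both groups shared that defect, and no cells with intact dystrophin were compared here. All were at passage 1. They received glycine at 0.2 mM (n = 3 libraries) or at 0.8 mM (n = 6 libraries), and the sources used here give no duration. The question addressed is how the transcripts of these enzymes differed between the lower and the higher glycine level.

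Glycine is built whole into the purine ring, at the step catalysed by the enzyme encoded by Gart, and also supplies one-carbon units to folate, which donates them to the same ring and to thymidylate. The ring is assembled on phosphoribosyl pyrophosphate until it becomes inosine monophosphate (IMP), from which AMP and GMP branch off. Cells can instead attach ready-made bases to phosphoribosyl pyrophosphate, the salvage route, at a much lower cost in energy. Pyrimidines are assembled from glutamine and aspartate into UMP, and ribonucleotide reductase then removes an oxygen from the ribose to give the deoxynucleotides of DNA. In muscle, the cycle of AMP deamination and re-amination through adenylosuccinate is known as the purine nucleotide cycle.

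Values were TPM, a transcript abundance corrected for gene length and scaled to a common sum per library. TPM keeps no read numbers, so the depth behind each value is unknown and the precision was taken from the spread between libraries. In these bulk samples fewer cells of a type and less RNA per cell cannot be told apart. Separate cultures or animals are not named in the labels, and p-values then reflect only the variation among these libraries, some or all of it possibly technical. The libraries are numbered in a series per glycine level, and a batch that followed those series cannot be told apart from glycine. Ribosomal RNA genes held 21.7% ± 1.65 (SD, n = 3) of TPM at 0.2 mM and 19.7% ± 1.66 (SD, n = 6) at 0.8 mM (two-sided exact permutation p = 0.155). Ribosomal protein genes held 23.5% ± 0.601 and 21.0% ± 0.431 (exact permutation p = 0.0119, the smallest that the 84 splits of 3 and 6 libraries allow).

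The label of the cells was checked against marker genes, and several lists moved with glycine. Of 9 tested myoblast markers 6 rose, Vcam1 fell and 2, Sdc4 and Pax7, did not pass, and the sum over all 11 listed was 218 to 253 TPM at 0.2 mM and 477 to 573 TPM at 0.8 mM. Most of the rise of that sum was that of Des, its most abundant gene, at 104 ± 12.8 and 356 ± 30.5 TPM. Des is also counted among the muscle differentiation genes below. The myoblast regulator Myod1 stood at 35.7 ± 4.55 TPM (SD, n = 3) at 0.2 mM and 69.3 ± 5.70 TPM (SD, n = 6) at 0.8 mM. Of 22 tested genes of muscle differentiation, 22 rose, among them the skeletal actin Acta1 and the myosin light chains Mylpf and Myl4, and their summed level was 4223 to 4968 TPM at 0.2 mM and 11806 to 14104 TPM at 0.8 mM. Of 13 tested genes of the G2 and M phases of the cell cycle, 11 rose and 0 fell by limma's test (0 also at an unadjusted p under 0.05), and the sum over all 20 listed was 26.6 to 37.3 TPM against 73.1 to 104 TPM. Of 14 tested genes of S phase, Ccne1 rose and Mcm7 fell, both named after their values were seen, and the sums over all 22 listed overlapped at 55.4 to 68.3 and 58.4 to 74.6 TPM. Leukocyte markers were abundant in both groups: 5 of 13 tested rose (S100a8, Lyz2, Tyrobp, Cd14 and Itgam) and 1 fell (Cd68), and the sum over all 15 was 2302 to 2429 TPM at 0.2 mM and 3124 to 4177 TPM at 0.8 mM. Lyz2 stood at 588 ± 30.6 and 1013 ± 153 TPM, Fcer1g at 949 ± 39.2 and 888 ± 36.3 TPM and S100a8 at 399 ± 37.5 and 1296 ± 462 TPM. Of 10 fibroblast markers 8 rose and 2, Dcn and Thy1, did not pass, with sums of 2332 to 2720 and 2767 to 3350 TPM. Dcn, the most abundant of them, stood at 1878 ± 184 and 1689 ± 209 TPM. Most of the rise of that sum was that of Ly6a, at 313 ± 19.6 and 901 ± 37.1 TPM. Of 4 tested endothelial markers 4 rose, with sums over all 7 listed of 11.6 to 12.4 and 20.6 to 30.4 TPM. No marker was at 0 in all 9 libraries, and the T cell marker Cd3e was at 0 in every library at 0.2 mM. A gene was tested if at least 3 libraries reached 1 TPM, which is easier to meet among 6 libraries than among 3. Aurka, Aurkb, Ccne1, Myh8, Itgam, Pi16, Pecam1 and Cdh5 rose but were below 1 TPM in every library at 0.2 mM. They were tested only through the libraries at 0.8 mM, which favours counts of rises. Of all genes tested, 16.7% rose and 9.81% fell. The part of these cell types and phases in the results below was not tested.

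Among the nucleotide enzymes, the transcripts of both subunits of the replicative ribonucleotide reductase, of the muscle adenylosuccinate synthase and of a uridine phosphorylase rose with glycine, and those of the purine base salvage enzymes Aprt and Hprt fell. Of the 38 genes, 35 reached 1 TPM in at least 3 libraries and were tested, with limma on log2(TPM + 1) across 10049 genes. Of these 35, 12 had a Benjamini-Hochberg adjusted p under 0.05 and passed, which is 34.3%, beside 26.6% of all genes tested. Rrm2, Adssl1, Rrm1, Impdh1, Upp1 and Ampd2 rose, 17.1% beside 16.7% of all genes. Of these, Rrm1 was below 1 TPM in every library at 0.2 mM and was tested only through the libraries at 0.8 mM. Aprt, Adss, Ctps, Gart, Hprt and Nme2 fell, 17.1% beside 9.81% of all genes. The share that rose was thus close to that of all genes. The median log2 fold change, always 0.8 mM minus 0.2 mM, was -0.11 over the 35 and 0.06 over all genes, and the median size of the change was 0.28 over the 35 and 0.27 over all genes.

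The 2 groups of libraries did not overlap for any of the 12 genes that passed. Over the members tested, 7 had every library at 0.8 mM above every library at 0.2 mM, where 17.6% of all genes did, and 6 had every library below, where 10.6% of all genes did. Uck2 was the gene with separate groups that did not pass. The number of members that fell rested on the libraries at 0.2 mM: it was 3 without replicate 1, 2 without replicate 2 and 3 without replicate 3, while the number that rose stayed between 5 and 7 with any library left out. Of all genes that passed, 63.1% rose, and this share was 52.6% after scaling by median ratios and 49.8% after quantile normalization, where 5 members rose and 7 fell.

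**Figure D1:**
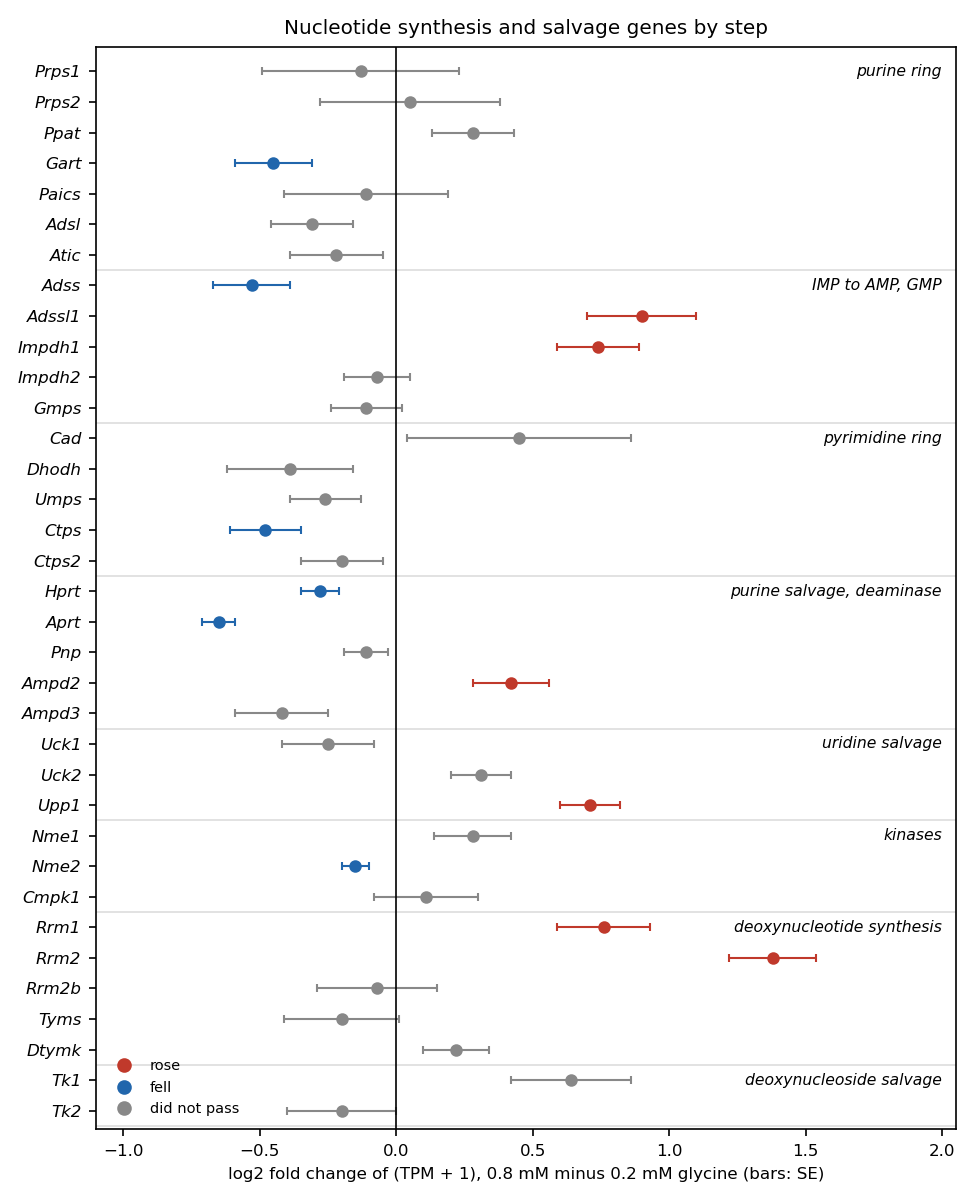
Change with glycine on the log2(TPM + 1) scale (x axis, 0.8 mM minus 0.2 mM, bars are the SE from limma) for the 35 tested genes, ordered by step on the y axis, with genes that rose in red, fell in blue and did not pass in grey. The changes ran from -0.65 for Aprt to 1.38 for Rrm2. Genes that passed in both directions appear in the IMP branch and in the group of purine salvage and AMP deaminase genes. In the latter the deaminase Ampd2 rose and the salvage enzymes Aprt and Hprt fell.

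Among the 7 tested enzymes that build the purine ring, Gart fell and 6 did not pass limma's test, with a median log2 fold change of -0.13 over the 7. Of all genes tested, 9.81% fell. None of the 7 had a higher estimate with an unadjusted p under 0.05. Gart, the trifunctional enzyme that joins glycine to the growing ring, stood at 2.60, 2.21 and 3.01 TPM in the libraries at 0.2 mM and between 1.27 and 1.92 TPM, with a median of 1.63 TPM, at 0.8 mM. Every library at 0.8 mM was below every library at 0.2 mM, and Gart fell by 0.45 ± 0.14 on the log2 scale (SE; limma adjusted p = 0.0329). Its call was lost without any 1 of 5 libraries, namely replicates 1 and 3 at 0.2 mM and replicates 1, 5 and 6 at 0.8 mM, with an adjusted p of up to 0.136, and with no filter on low values (adjusted p = 0.0606). Gart starts 554 bases from the start of Son on the opposite strand, and Son stood at 9.26 ± 0.782 and 9.98 ± 0.649 TPM.

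The promoter of Gart is shown because Gart is the glycine-consuming step and fell. The 250 bases before its RefSeq start site lie at chr16:91646973-91647222 on the minus strand of GRCm38.p6, with the match to CCAAT, the box bound by the trimeric factor NF-Y, in capitals:

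Gart: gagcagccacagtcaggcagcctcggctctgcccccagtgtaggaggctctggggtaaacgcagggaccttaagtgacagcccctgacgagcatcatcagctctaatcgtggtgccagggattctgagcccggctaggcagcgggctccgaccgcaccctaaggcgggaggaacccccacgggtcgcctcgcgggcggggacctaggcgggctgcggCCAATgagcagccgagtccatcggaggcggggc

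The other ring enzymes did not pass. Ppat, the amidophosphoribosyltransferase that commits the pathway, had an estimate of 0.28 ± 0.15 on the log2 scale (SE; limma adjusted p = 0.202), and Adsl and Atic, which act late in the pathway, had -0.31 ± 0.15 (adjusted p = 0.181) and -0.22 ± 0.17 (adjusted p = 0.364). Paics, a bifunctional carboxylase and synthetase, stood at 31.0, 13.4 and 10.5 TPM at 0.2 mM and between 11.0 and 21.7 TPM at 0.8 mM. A single library at 0.2 mM was thus far above the other two, and the log2 fold change of Paics was -0.11 with all libraries and 0.33 without it. Ppat and Paics lie head to head on chromosome 5, their annotated transcripts overlap by 272 bases on opposite strands, and no source used here says how strand was treated. Prps1 and Prps2, which make phosphoribosyl pyrophosphate, varied widely within groups, with coefficients of variation of 44.4% and 41.2% at 0.2 mM and 42.7% and 64.8% at 0.8 mM. Pfas was below the filter on low values, with 0.332 to 0.670 TPM in 5 of the 6 libraries at 0.8 mM and 2.51 TPM in the other.

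At the branch from IMP to AMP, one isozyme rose and the other fell, and at the branch to GMP one rose and the other did not pass. Adssl1, the adenylosuccinate synthase typical of muscle, stood at 7.32, 4.50 and 7.11 TPM at 0.2 mM and between 9.86 and 17.8 TPM, with a median of 12 TPM, at 0.8 mM. Each library at 0.8 mM exceeded those at 0.2 mM, and Adssl1 rose by 0.90 ± 0.20 (SE; limma adjusted p = 0.00602). Adss, which catalyses the same step in most tissues, stood at 5.00, 5.76 and 3.98 TPM at 0.2 mM and between 2.48 and 3.68 TPM, with a median of 3.09 TPM, at 0.8 mM. Adss fell by 0.53 ± 0.14 (limma adjusted p = 0.0171), a call lost without replicate 1 or replicate 2 at 0.2 mM (adjusted p up to 0.0899). Adssl1 moved with the list of muscle differentiation genes given above, and the part of that list in its rise was not tested.

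On the GMP side, IMP dehydrogenase is the rate-limiting enzyme. Impdh1 stood at 3.25, 2.17 and 3.86 TPM at 0.2 mM and between 4.93 and 7.06 TPM, with a median of 5.71 TPM, at 0.8 mM. The groups were separate, and Impdh1 rose by 0.74 ± 0.15 (SE; limma adjusted p = 0.00457). Impdh2, the more abundant isozyme here, stood at 27.6 ± 2.29 TPM (SD, n = 3) and 26.4 ± 3.88 TPM (SD, n = 6), with a log2 fold change of -0.07 ± 0.12 (limma adjusted p = 0.721). Gmps, which aminates the product to GMP, stood at 1.48 ± 0.156 and 1.3 ± 0.200 TPM (limma adjusted p = 0.603).

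Of the 5 enzymes of de novo pyrimidine synthesis, Ctps fell and 4 did not pass, while 9.81% of all genes tested fell. Ctps, which aminates UTP to CTP, stood at 14.1, 15.6 and 12.2 TPM at 0.2 mM and between 8.47 and 12 TPM, with a median of 9.23 TPM, at 0.8 mM. Its groups were separate by a small margin, and it fell by 0.48 ± 0.13 (SE; limma adjusted p = 0.0196), a call lost without replicate 1 or replicate 2 at 0.2 mM (adjusted p up to 0.0932). Ctps2, which catalyses the same reaction, stood at 11.7 ± 2.55 and 9.94 ± 1.34 TPM (limma adjusted p = 0.346). Cad, whose protein carries out the opening steps, spread from 0.538 to 6.77 TPM within the libraries at 0.8 mM alone, with a log2 fold change of 0.45 ± 0.41 (limma adjusted p = 0.479). Dhodh, the mitochondrial dehydrogenase of the pathway, and Umps, which completes UMP, had log2 fold changes of -0.39 ± 0.23 and -0.26 ± 0.13 (limma adjusted p = 0.243 and 0.167). The summed level of the 5 genes was 32.8 to 35.8 TPM at 0.2 mM and 22.3 to 31.5 TPM at 0.8 mM, which did not overlap and was not tested. Ctps had the largest difference of the 5, with means of 14 and 9.77 TPM. Cad went the other way, with means of 1.83 and 3.12 TPM, so the sum adds little to Ctps. Of all single genes tested, 10.6% had every library at 0.8 mM below every library at 0.2 mM.

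Purine base salvage held the fall with the smallest adjusted p of the members. Aprt, which converts adenine to AMP, stood at 141.6, 146.4 and 147.1 TPM at 0.2 mM and between 85.9 and 98.1 TPM, with a median of 92.5 TPM, at 0.8 mM. The groups lay far apart for their spread, and Aprt fell by 0.65 ± 0.06 (SE; limma adjusted p = 1.14e-05). Hprt, which recovers hypoxanthine and guanine, stood at 47.9, 53.2 and 55.2 TPM at 0.2 mM and between 40.7 and 45.6 TPM, with a median of 42.0 TPM, at 0.8 mM. Its libraries were separate too, and Hprt fell by 0.28 ± 0.07 (limma adjusted p = 0.0150), a call lost without replicate 2 or replicate 3 at 0.2 mM (adjusted p up to 0.0673). Hprt is often used as a reference gene for expression measurements, and its estimate was below 0 under each scaling that was tried. In a list of 9 reference genes, Hprt included, Gapdh, Actb and Ppia rose, Hprt and B2m fell and 4 did not pass. Of all genes tested, 16.7% rose and 9.81% fell. Pnp, the phosphorylase that releases purine bases, stood at 48.7 ± 5.31 and 44.8 ± 2.54 TPM with overlapping groups (limma adjusted p = 0.345). It shares a stretch of 8758 bases with its paralog Pnp2, at 1.27 ± 0.117 and 1.98 ± 0.361 TPM, so reads could have been divided between them.

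The AMP deaminases turn AMP back into IMP. Ampd2 stood at 1.48, 1.42 and 1.41 TPM at 0.2 mM and between 1.74 and 2.66 TPM, with a median of 2.38 TPM, at 0.8 mM. It rose by 0.42 ± 0.14 (SE; limma adjusted p = 0.0450), but the call was lost without any 1 of 7 libraries, namely replicates 1 to 3 at 0.2 mM and 1 to 4 at 0.8 mM (adjusted p up to 0.116). It was also lost after scaling by median ratios (adjusted p = 0.0700), after quantile normalization (0.0928), without ribosomal RNA genes (0.0616) and with no filter on low values (0.0807). Ampd3, at 11.8 ± 1.25 and 8.65 ± 1.94 TPM, did not pass with a log2 fold change of -0.42 ± 0.17 (limma adjusted p = 0.0937). It passed after scaling by median ratios (adjusted p = 0.0493), after quantile normalization (0.0467) and without replicate 4 at 0.8 mM (0.0406). Ampd1, the isoform of mature skeletal muscle, was listed at 0 in 8 of the 9 libraries and at 0.0820 TPM in the other.

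In uridine salvage Upp1 rose and the kinases did not pass. Upp1, a uridine phosphorylase that splits uridine into uracil and ribose phosphate, stood at 24.1, 26.1 and 20.9 TPM at 0.2 mM and between 33.4 and 45.0 TPM, with a median of 39.0 TPM, at 0.8 mM. Every library at 0.8 mM was above those at 0.2 mM, and Upp1 rose by 0.71 ± 0.11 (SE; limma adjusted p = 0.000547). Uck2, the more abundant of the uridine-cytidine kinases here, stood at 13.0, 15.9 and 15.9 TPM at 0.2 mM and between 16.5 and 21.6 TPM at 0.8 mM. Its groups did not overlap, yet its log2 fold change of 0.31 ± 0.11 did not pass (limma adjusted p = 0.0610). It passed with a filter at a mean of 5 TPM (adjusted p = 0.0391), with library weights (0.0446) and without replicate 6 at 0.8 mM (0.0478). Uck1 stood at 3.13 ± 0.802 and 2.45 ± 0.497 TPM (limma adjusted p = 0.308). The summed level of these 3 genes was 39.1 to 45.9 TPM at 0.2 mM and 54.0 to 66.5 TPM at 0.8 mM, while that of the purine salvage and deaminase genes was 250 to 266 and 185 to 198 TPM. Neither sum overlapped between groups, and neither was tested. Most of the difference lay in Upp1 for the first sum and in Aprt for the second, so the sums add little to those genes.

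The promoter of Upp1 is shown because Upp1 rose and its window holds the E-box CAGCTG, both known when it was chosen. This E-box is a form of the motif bound by myogenic regulators such as Myod1. The 250 bases before a RefSeq start site lie at chr11:9117758-9118007 on the plus strand of GRCm38.p6, with the motif in capitals:

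Upp1: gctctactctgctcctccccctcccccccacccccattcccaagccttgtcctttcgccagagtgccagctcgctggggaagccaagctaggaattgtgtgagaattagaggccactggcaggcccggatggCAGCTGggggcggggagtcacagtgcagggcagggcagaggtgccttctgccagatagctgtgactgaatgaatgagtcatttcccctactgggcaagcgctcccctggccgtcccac

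**Figure D2:**
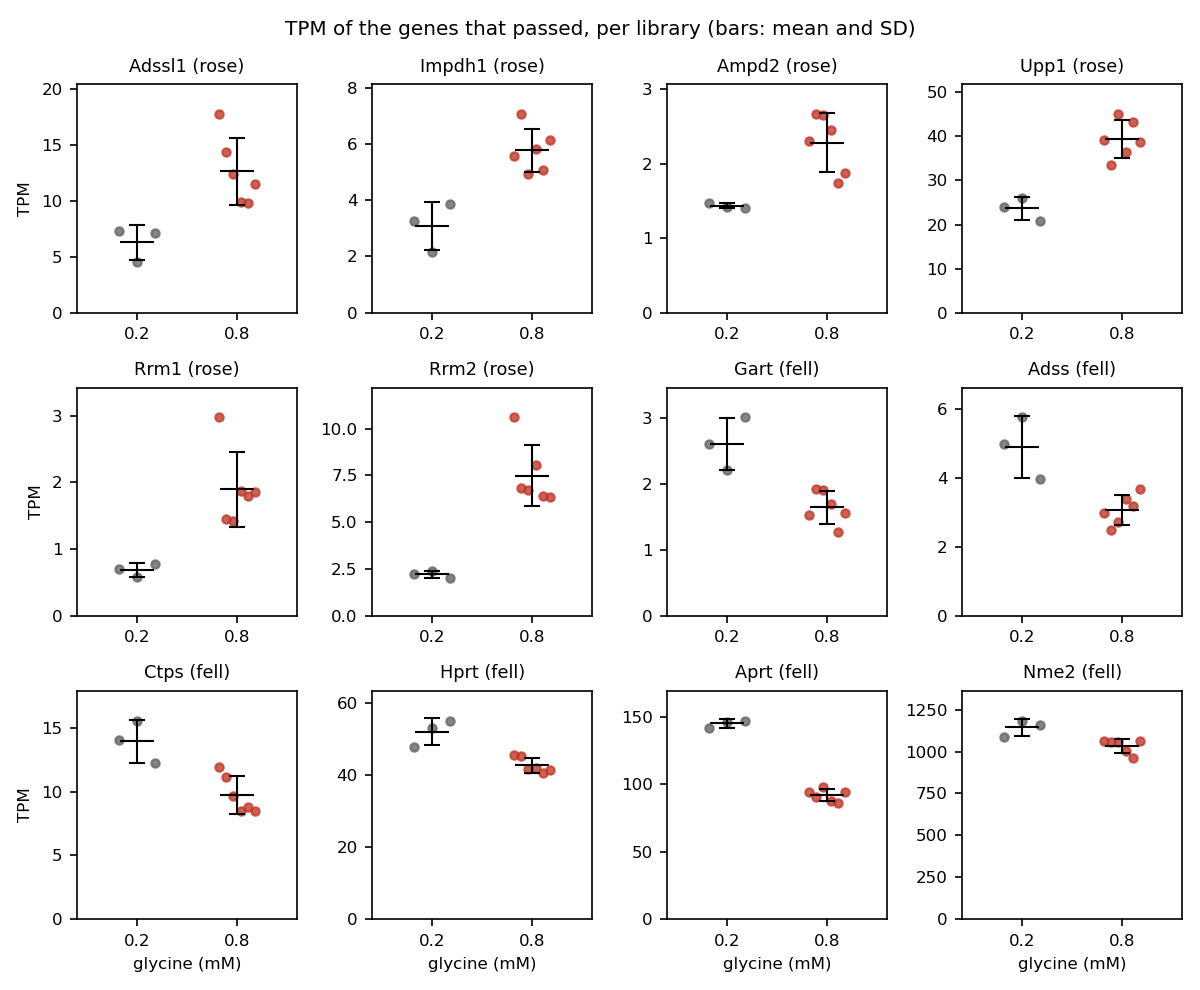
TPM per library (y axis, each from 0) for the 12 genes that passed, with grey points at 0.2 mM, red points at 0.8 mM and bars for the mean and SD. No library at 0.8 mM lies within the range of those at 0.2 mM for any of the 12 genes, and the margin is narrow for Ctps, Adss and Nme2 and wide for Aprt and Rrm2.

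The nucleotide kinases add phosphates to nucleotides. Nme2, a nucleoside diphosphate kinase and the most abundant transcript of the 38, stood at 1088, 1184 and 1161 TPM at 0.2 mM and between 961 and 1065 TPM, with a median of 1058 TPM, at 0.8 mM. The groups were separate by a narrow margin, and Nme2 fell by 0.15 ± 0.05 (SE; limma adjusted p = 0.0415). Its call was lost without any 1 of 5 libraries, namely replicates 2 and 3 at 0.2 mM and 3, 4 and 5 at 0.8 mM (adjusted p up to 0.156), and also with no filter on low values (0.0838), with eBayes without trend (0.222) and with library weights (0.0507). Nme1, its neighbour on chromosome 11, stood at 57.7 ± 4.78 and 71.1 ± 11.8 TPM (limma adjusted p = 0.159), and passed without replicate 4 at 0.8 mM (adjusted p = 0.0269). An annotated transcript that reads through both genes on the same strand, Gm20390, stood at 51.2 ± 6.40 and 61.9 ± 8.37 TPM, so the division of reads among the 3 is uncertain. Summed over Nme1, Nme2 and Gm20390 the level was 1253 ± 60.5 TPM at 0.2 mM and 1167 ± 43.6 TPM at 0.8 mM, with overlapping groups. Cmpk1, the UMP-CMP kinase, stood at 10.6 ± 3.10 and 11.4 ± 2.13 TPM (limma adjusted p = 0.716).

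Deoxynucleotide supply showed the largest rise among the members. Rrm2, the small subunit of ribonucleotide reductase made in dividing cells, stood at 2.26, 2.38 and 2.02 TPM at 0.2 mM and between 6.32 and 10.6 TPM, with a median of 6.76 TPM, at 0.8 mM. The lowest library at 0.8 mM was well above the highest at 0.2 mM, the ratio of the group means was 3.37, and Rrm2 rose by 1.38 ± 0.16 (SE; limma adjusted p = 6.93e-05). Rrm1, the large catalytic subunit, stood at 0.706, 0.576 and 0.778 TPM at 0.2 mM and between 1.42 and 2.97 TPM, with a median of 1.83 TPM, at 0.8 mM. It was low in all libraries but separate between groups, and it rose by 0.76 ± 0.17 (limma adjusted p = 0.00687). Every library at 0.2 mM was below 1 TPM, so Rrm1 met the filter on low values only through those at 0.8 mM. With no filter its limma adjusted p was 0.0195. Rrm2b, the small subunit that serves resting cells and DNA repair, stood at 1.52 ± 0.270 and 1.46 ± 0.604 TPM (limma adjusted p = 0.862).

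The other genes of DNA precursor supply did not pass. Tyms, which makes thymidylate with a folate one-carbon unit, stood at 18.2, 12.6 and 19.7 TPM at 0.2 mM and between 9.98 and 19.3 TPM at 0.8 mM. These ranges overlapped widely, and Tyms had an estimate of -0.20 ± 0.21 on the log2 scale (SE; limma adjusted p = 0.527). Dtymk, the next kinase, had 0.22 ± 0.12 (limma adjusted p = 0.206). Tk1, the thymidine kinase of dividing cells, stood at 1.87, 2.95 and 1.33 TPM at 0.2 mM and between 2.29 and 5.35 TPM at 0.8 mM. One library at 0.2 mM lay inside the range at 0.8 mM, and Tk1 had 0.64 ± 0.22 (limma adjusted p = 0.0570), which passed without replicate 2 at 0.2 mM (adjusted p = 0.0310) or replicate 3 at 0.8 mM (adjusted p = 0.0259). Tk2, the mitochondrial thymidine kinase, stood at 2.53 ± 0.931 and 2.03 ± 0.454 TPM (limma adjusted p = 0.513). Dck, the deoxycytidine kinase, stayed below the filter with 0.231 ± 0.162 and 0.481 ± 0.122 TPM. Of the 7 tested genes of deoxynucleotide supply, 2 rose and 0 fell by limma's test (0 also at an unadjusted p under 0.05), beside the 11 of 13 G2 and M genes and the 1 of 14 S phase genes that rose. Among all genes tested, 16.7% rose. The part of the cell cycle lists in the rise of Rrm1 and Rrm2 was not tested.

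The promoters of Rrm1 and Rrm2 are shown because both subunits rose, and that of Tyms, which did not pass, as a contrast from the same supply route, chosen after its values were seen. The stretches lie at chr7:102441445-102441694 on the plus strand for Rrm1, at chr12:24708004-24708240 on the plus strand for Rrm2 and at chr5:30073626-30073875 on the minus strand for Tyms, all before the RefSeq start site in GRCm38.p6. Capitals mark CCAAT in Rrm1 and Rrm2, and in Tyms the E-box CACGTG, which the growth regulator Myc can bind:

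Rrm1: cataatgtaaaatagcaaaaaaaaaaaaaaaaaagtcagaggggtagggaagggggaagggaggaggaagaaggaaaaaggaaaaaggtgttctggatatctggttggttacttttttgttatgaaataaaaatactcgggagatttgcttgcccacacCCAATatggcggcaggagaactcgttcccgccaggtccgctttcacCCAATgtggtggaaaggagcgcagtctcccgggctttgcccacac

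Rrm2: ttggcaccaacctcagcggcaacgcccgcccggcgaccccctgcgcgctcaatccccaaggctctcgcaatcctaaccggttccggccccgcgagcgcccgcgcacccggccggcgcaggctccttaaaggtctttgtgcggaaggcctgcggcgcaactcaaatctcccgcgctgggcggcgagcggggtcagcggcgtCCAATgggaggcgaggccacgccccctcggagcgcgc

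Tyms: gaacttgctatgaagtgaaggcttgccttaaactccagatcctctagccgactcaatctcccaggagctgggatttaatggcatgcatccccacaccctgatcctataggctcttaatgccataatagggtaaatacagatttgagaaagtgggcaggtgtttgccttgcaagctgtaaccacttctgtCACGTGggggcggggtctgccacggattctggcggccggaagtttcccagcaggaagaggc

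In Rrm1 the first base of CCAAT lay 91 and 45 bases before the start, and in Rrm2 it lay 50 bases before it. The box began 33 bases before the start of Gart, which fell, so its presence was shared by genes of both directions. RefSeq promoter windows, from 250 bases before to 50 after the start, matched 34 of the 38 genes by symbol with 46 windows, and Pfas, Dhodh, Ampd1 and Rrm2b had none. Motifs were searched on both strands. CCAAT was found in 12 of the 34 genes, or 28.3% of their windows, beside 37.4% of the 32851 windows of all genes. Of the 12, Rrm1, Rrm2 and Gart passed, and Prps1, Paics, Atic, Impdh2, Ctps2, Pnp, Ampd3, Uck2 and Dtymk did not. CACGTG was found in 7 genes (Paics, Atic, Impdh2, Ampd3, Nme1, Tyms and Dtymk), or 17.4% of their windows beside 7.15% of all. None of the 7 passed, beside 34.3% of the tested members, and 7 genes are too few to relate motif and call. CAGCTG was found in 6 genes (Prps2, Paics, Upp1, Nme1, Cmpk1 and Rrm2), or 17.4% beside 16.3%. The E2F sites TTTGGCG and TTTCCCG were found in 0 and 2 genes, where 1.56% and 3.39% of all windows hold them, and the ATF4 element TGATGNAA in Prps1 alone, where 3.97% of all windows hold it. These matches are descriptions of the sequence, were not tested, and say nothing of whether a factor was bound.

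Isozymes and subunits were then compared within each library, as the log2 ratio of TPM + 1 of one gene to the other. A common scaling of the library affects this ratio only through the added 1, which weighs most for genes of low TPM. Of 11 pairs listed, 10 had both genes above the filter, and 5 passed a two-sided exact permutation test with Benjamini-Hochberg adjustment over the 10. The share of Adssl1 in the summed TPM of Adssl1 and Adss was 55.8% ± 10.6 (SD, n = 3) at 0.2 mM and 79.8% ± 5.11 (SD, n = 6) at 0.8 mM, and the log2 ratio was higher by 1.43 ± 0.35 (SE; exact permutation p = 0.0119, adjusted p = 0.0298). Their total was 11.2 ± 1.03 and 15.7 ± 2.84 TPM, higher in every library at 0.8 mM. For IMP dehydrogenase the share of Impdh1 was 9.96% ± 1.95 and 18.0% ± 1.65 of a total that overlapped between groups, at 30.7 ± 3.07 and 32.2 ± 4.44 TPM, and the log2 ratio was higher by 0.81 ± 0.14 (exact permutation p = 0.0119, adjusted p = 0.0298).

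Among the small subunits of ribonucleotide reductase, the share of Rrm2b beside Rrm2 was 40.5% ± 5.90 at 0.2 mM and 16.2% ± 6.03 at 0.8 mM, a log2 ratio difference of -1.45 ± 0.21 (SE; exact permutation p = 0.0119, adjusted p = 0.0298). The ratio of Rrm1 to Rrm2 differed by -0.62 ± 0.11 with the same p-values. With a pseudocount of 0.1 it differed by -0.38 (permutation test, adjusted p = 0.0850) and did not pass. The share of Rrm1 in their summed TPM, with no added 1, was 23.7% ± 4.17 and 20.1% ± 2.38 and overlapped between groups. The share of Ampd3 beside Ampd2 was 89.1% ± 1.08 and 78.6% ± 5.44, a log2 ratio difference of -0.85 ± 0.18 (exact permutation p = 0.0238, adjusted p = 0.0476), which was lost with a pseudocount of 0.1 (adjusted p = 0.0595) and without replicate 3, 4, 5 or 6 at 0.8 mM (adjusted p up to 0.0714). Without any library at 0.2 mM, 0 pairs passed: the 28 splits that remain allow no exact p below 0.0357, and the smallest value after adjustment over the 10 pairs was 0.0595.

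The other 5 pairs did not pass. Tk2 over Tk1 differed by -0.84 ± 0.29 (SE) and Nme1 over Nme2 by 0.43 ± 0.11, both with an exact permutation p of 0.0357 and an adjusted p of 0.0510, and Tk2 over Tk1 passed without replicate 3 at 0.8 mM (adjusted p = 0.0357). Uck1 over Uck2 differed by -0.57 ± 0.24 (exact permutation p = 0.0714, adjusted p = 0.0893). For Ctps2 over Ctps the difference was 0.28 ± 0.28 (exact permutation p = 0.345, adjusted p = 0.384), while their total was 25.7 ± 0.874 TPM at 0.2 mM and 19.7 ± 2.03 TPM at 0.8 mM without overlap. Prps1 over Prps2 differed by -0.18 ± 0.53 (exact permutation p = 0.798).

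**Figure D3:**
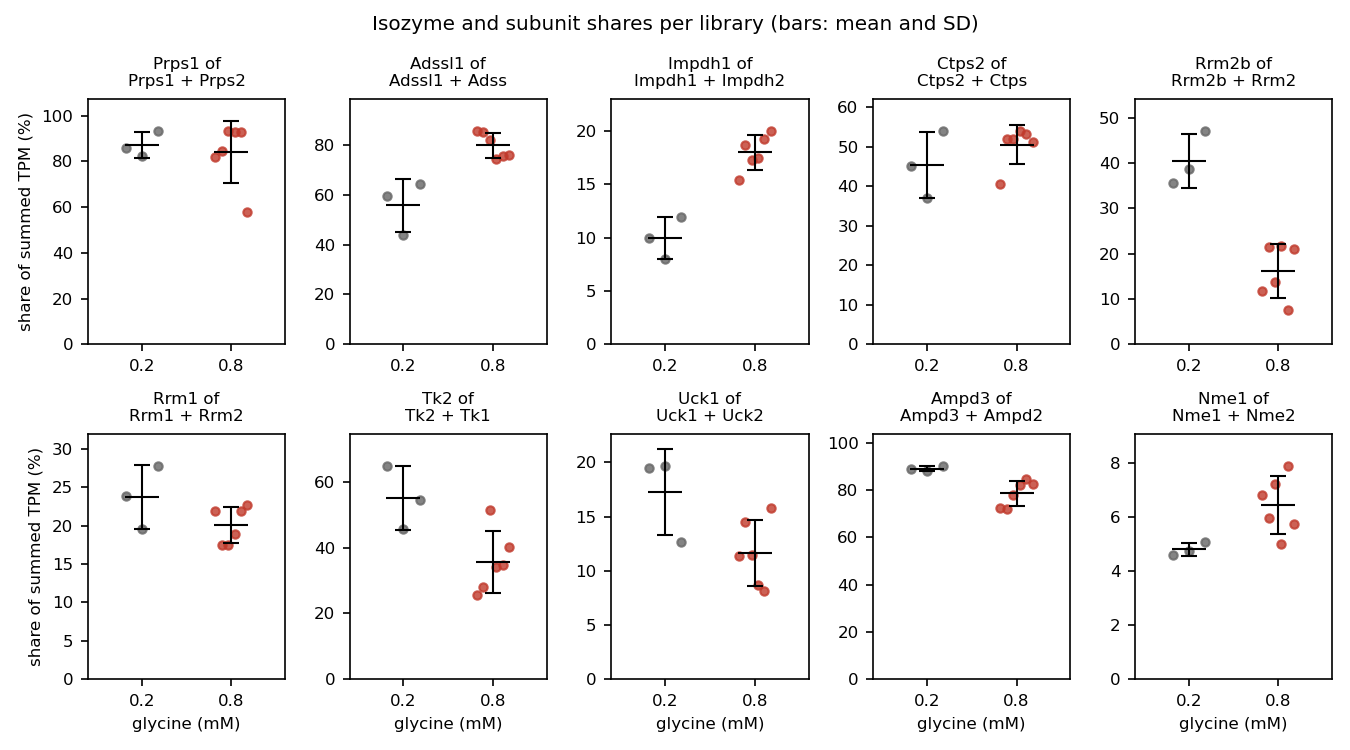
Share of the first gene in the summed TPM of each tested pair (y axis, percent) per library, with grey points at 0.2 mM, red points at 0.8 mM and bars for the mean and SD. The shares of Adssl1 and Impdh1 are higher and that of Rrm2b is lower in every library at 0.8 mM, while the shares of Rrm1, Ctps2 and Prps1 overlap.

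The reactions around these routes were read from 6 lists with 76 genes. Of the 59 tested, 6 rose and 6 fell, beside 16.7% and 9.81% of all genes. Among nucleoside salvage genes outside the 38, Adk, the adenosine kinase, stood at 4.26, 1.37 and 4.55 TPM at 0.2 mM and between 6.53 and 16.7 TPM, with a median of 11.9 TPM, at 0.8 mM. Every library at 0.8 mM exceeded those at 0.2 mM, and Adk rose by 1.57 ± 0.32 (SE; limma adjusted p = 0.00378). Among 11 other nucleotide kinases tested, Ak1 and Ak3, which interconvert adenine or guanine nucleotides, rose (Ak1 from 28.2 ± 3.53 to 62.6 ± 5.94 TPM, Ak3 from 4.25 ± 1.01 to 6.27 ± 0.422 TPM; limma adjusted p = 1.60e-05 and 0.0170). Ak1 is abundant in muscle.

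Breakdown genes moved in both directions. Of 15 tested, 3 rose and 1 fell, beside 16.7% and 9.81% of all genes. Cda, which deaminates cytidine, rose from 1.40 ± 0.568 to 4.42 ± 0.648 TPM (limma adjusted p = 0.000427), and Ada, which deaminates adenosine, from 0.586 ± 0.0579 to 1.52 ± 0.517 TPM (adjusted p = 0.0304). Ada was below 1 TPM in every library at 0.2 mM and was tested only through those at 0.8 mM. Nt5c2, a nucleotidase that acts on IMP and GMP, rose from 1.93 ± 0.110 to 3.08 ± 0.584 TPM (limma adjusted p = 0.0309). Xdh, which oxidises hypoxanthine to urate and so competes with Hprt for its substrate, stood at 4.69, 3.82 and 3.89 TPM at 0.2 mM and between 0.944 and 1.41 TPM at 0.8 mM. It fell by 1.27 ± 0.13 on the log2 scale (SE; limma adjusted p = 4.08e-05), with the groups well apart. Slc28a3, a nucleoside carrier, and Upb1, of pyrimidine breakdown, were listed at 0 in all 9 libraries.

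Genes that supply precursors, or that compete for them, fell or did not pass. By limma's test 0 of 27 rose (2 had a higher estimate at an unadjusted p under 0.05), beside 16.7% of all genes. Among the 27, 5 fell, beside 9.81% of all genes. In folate one-carbon supply 2 of 13 tested fell, Mthfd2 from 38 ± 3.68 to 12.7 ± 0.942 TPM and Shmt2, which takes a one-carbon unit from serine and releases glycine, from 37.6 ± 5.85 to 16.4 ± 1.82 TPM (limma adjusted p = 7.70e-07 and 3.87e-05). In ribose supply 1 of 7 fell, G6pdx, the entry enzyme of the pentose phosphate pathway, from 13.0 ± 0.237 to 8.96 ± 1.18 TPM (adjusted p = 0.00734). Of 7 tested genes of glutamine and aspartate supply and use 2 fell, Slc1a5, a glutamine carrier, from 13.5 ± 1.32 to 4.73 ± 0.694 TPM and Asns, the asparagine synthetase that consumes both amino acids, from 67.6 ± 5.32 to 22.2 ± 2.02 TPM (adjusted p = 1.63e-05 and 5.54e-07).

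**Figure D4:**
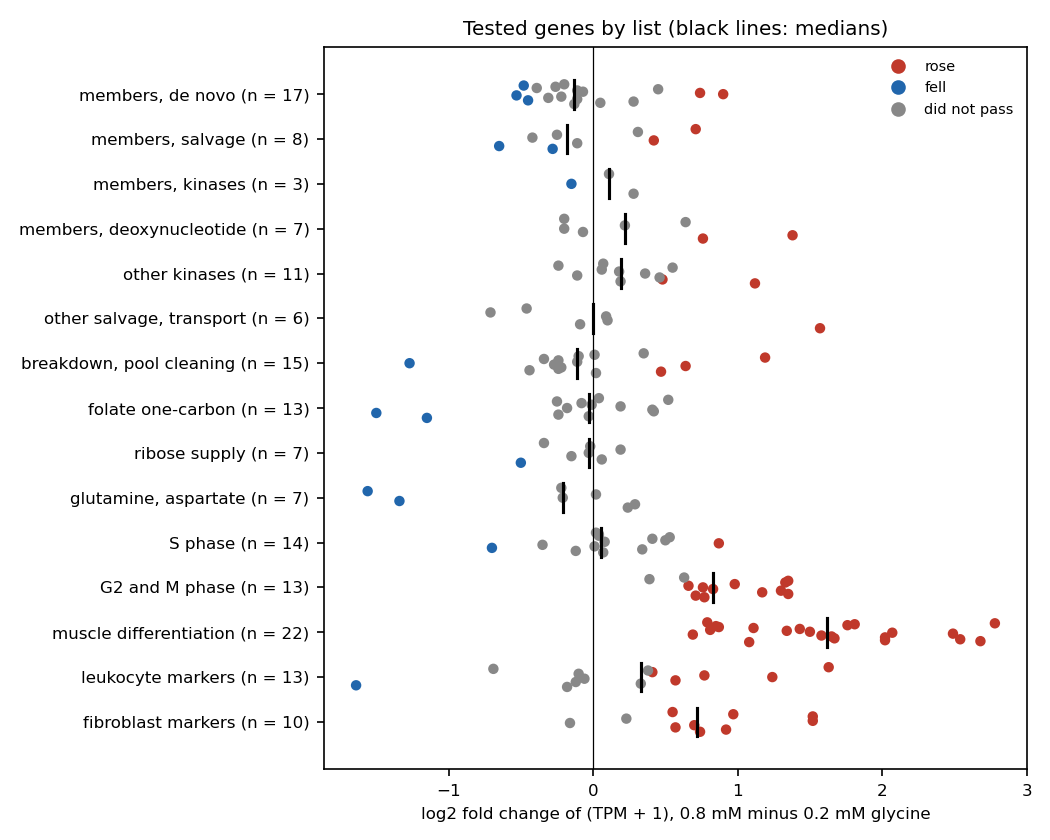
Change with glycine on the log2(TPM + 1) scale (x axis, 0.8 mM minus 0.2 mM) of every tested gene of each list (y axis, n is the number tested), with black lines at the list medians and the calls of limma's test in colour. The 4 groups of members spread around 0 with medians of -0.18 to 0.22, the median of the S phase list is 0.06, and those of the G2 and M phase and muscle differentiation lists are 0.83 and 1.61.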

How the data were processed

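RNA sequencing was done on 9 libraries of primary myoblasts. Per the labels' protocols, total RNA was taken up in Trizol and made into libraries with an Illumina TruSeq kit. The read aligner HISAT2 2.0.5, the transcript quantifier StringTie 1.3.3, DESeq2 and the mm10 build are named per the submitters' processing notes. The annotation release, the settings and how strand was treated are not stated in the sources used here. Values were deposited by the authors as TPM per gene, and each library summed to 1000000. No pair of libraries held identical values.

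Samples were grouped by the labelled glycine level. TPM are not counts, so genes were tested on log2(TPM + 1) by limma (version 3.58.1, R 4.3.3; lmFit, then eBayes with trend; two-sided) over the 10049 genes with at least 1 TPM in at least 3 libraries. A fold change on this scale understates the change of low genes. The threshold for passing was a p under 0.05 after Benjamini-Hochberg adjustment. The p of the exact permutation test is the share of the 84 splits whose absolute difference of group means was at least the observed one. The scripts were tested on simulated data.

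The members and lists were chosen with earlier results of these data known. The text gives all 38 members, all pairs of isozymes, up to 4 genes of each neighbouring list by smallest p among those that passed, and up to 3 markers of each list by highest mean TPM. Other genes were named after their values were seen. Promoter windows came from RefSeq (GRCm38.p6) and gene positions and overlaps from GENCODE M21 on GRCm38, with which 53620 of the 53715 IDs matched without their version. Only bases upstream of both start sites are printed, of members with a motif match.

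Alternatives were pseudocounts of 0.1 and 0.5, quantile normalization, median-ratio scaling, rescaling without ribosomal RNA genes or mitochondrially encoded ones, no filter, a minimum mean of 5 TPM, eBayes without trend or robust, library weights, a 1.5-fold threshold, each library left out, and the library number as a block. Figures were drawn with matplotlib 3.10.9.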

Additional observations from a re-analysis of the deposited data

Results flagged for a closer look

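Among the 6 libraries at 0.8 mM glycine, the gap between the highest or lowest library and its nearest neighbour was large for the range of the group (above Dixon's critical value) in 4 of the 38 genes, and chance gives such a gap in about 1 in 20 groups. Pfas stood at 2.51 TPM in replicate 3, where the next highest library had 0.670 TPM. Ampd1 was listed at 0.0820 TPM in replicate 4 and at 0 in every other library. Rrm1 stood at 2.97 TPM in replicate 1, where the next highest had 1.87 TPM, and without that library Rrm1 still rose by 0.67 ± 0.14 (SE; limma adjusted p = 0.00553). Tk2 stood at 1.16 TPM in the same replicate 1, where the next lowest had 2.04 TPM, and it did not pass with or without that library (adjusted p = 0.513 and 0.715). The cause of these 4 values was not tested.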

How the results depend on the processing

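Aprt, Adssl1, Upp1 and Rrm2 kept their calls under each alternative run, and Impdh1 and Rrm1 under each except the replicate block and the filter at a mean of 5 TPM, which left them untested. Requiring also 1.5-fold left 1121 genes that rose and 515 that fell, and 1 member that fell. With a library left out, 1304 to 1626 genes and 5 to 7 members rose, 720 to 968 genes and 2 to 6 members fell, and 0 to 5 pairs passed. A pseudocount of 0.1 left 3 pairs. The library numbers 1 to 3 are shared by the groups but did not pair them: deviations of same-numbered libraries correlated at 0.038, 0.002 and 0.107, and not every library correlated best with its own number. The replicate block on those 6 libraries gave 625 genes that fell, 3 members that rose (7 without the block) and 2 that fell (3 without it), with adjusted p of 0.0891 for Impdh1 and 0.0626 for Rrm1. Its sign-flip test passed 0 pairs, since 3 pairs allow no p below 0.25. Changes of sign touched only genes and a pair that did not pass. Prps2 had -0.04 after quantile normalization and ran from -0.08 to 0.24 with a library left out (below 0 without any of 4, at -0.06, -0.03, -0.08 and -0.07). With a library left out Paics ran from -0.41 to 0.33 and Cmpk1 from -0.10 to 0.30, both crossing 0 without replicate 1 at 0.2 mM. Prps1 ran from -0.41 to 0.17 (above 0 at 0.17 and 0.08) with a library left out, and had 0.22 in the 6 libraries with the block and without it. Rrm2b ran from -0.15 to 0.06 (above 0 at 0.01 and 0.06), and Impdh2 had 0.03 in the 6 libraries with the block and without it. Prps1 over Prps2 ran from -0.38 to 0.20 (above 0 at 0.20 and 0.15) and had 0.01 with the block. The cause was not tested. Depth is unknown, so what it limits could not be measured.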

Other observations

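The levels of the 38 transcripts spanned a wide range. Over all 9 libraries Nme2 averaged 1071 TPM, Aprt 110 TPM, Nme1 66.6 TPM, Pnp 46.1 TPM, Hprt 45.9 TPM and Upp1 34.1 TPM, so the most abundant members were kinases and salvage enzymes. The most abundant enzyme of the de novo routes was Impdh2 at 26.8 TPM, followed by Paics at 16.4 TPM. In this order, every library of a gene lay above every library of the next for Nme2, Aprt and Dck alone, and all other neighbours overlapped. The median coefficient of variation of the tested members was 17.9% at 0.2 mM and 17.7% at 0.8 mM.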
